A study of Homo sapiens with 6 samples.

Results

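The aldehyde dehydrogenases described here are 10 genes, Aldh1a1, Aldh1a2, Aldh1a3, Aldh1a7, Aldh1b1, Aldh2, Aldh3a1, Aldh3a2, Aldh3b1 and Aldh18a1, taken by symbol from a count table of 22989 genes. All 10 were found, and the table holds another 11 genes whose symbol starts with Aldh. The long non-coding RNA LINC00115 had been knocked down by short hairpin RNA in the cells of 3 RNA-seq libraries (LINC00115 KD), and 3 more are labelled WT. The knockdown libraries carry the descriptions sh115-1 to sh115-3, read here as replicate numbers because the titles number them so. The study also uses sh115-1 and sh115-2 as names of different hairpins, and its RNA-seq figure legend gives sh115-2 as the one used. The labels describe both groups as paclitaxel (PTX)-resistant MDA-MB-231 breast cancer stem cells (BCSC). That line comes from a human breast tumor without hormone receptors or HER2, and the study took as BCSC the cells that stain for aldehyde dehydrogenase activity in the ALDEFLUOR assay. The labels do not say whether the 3 libraries of a group came from separate cultures, so p-values measure the spread between these libraries only. WT is the single kind of control, and that name does not say whether the cells carried the study's control hairpin.

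Aldehyde dehydrogenases oxidize aldehydes to carboxylic acids with NAD+ or NADP+ as the acceptor. The ALDH1A enzymes convert retinaldehyde to retinoic acid, a ligand of nuclear receptors, while other members clear acetaldehyde, fatty aldehydes and the products of lipid peroxidation. High enzyme activity in the ALDEFLUOR assay is widely used to enrich stem-like cells of breast tumors, and the isozyme behind that activity differs between cell lines.

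The labels and the table differ in a respect that touches every value below. The symbols are in mouse style, and of the 21 Aldh symbols 19 equal a human gene symbol apart from case, while Aldh1a7 and Aldh3b3 equal none. Aldh1a7 is a rodent gene closely related to Aldh1a1, and many other rows have names used in mouse annotation only. Human reads counted on a mouse annotation and reads from mouse cells cannot be told apart from the sources used here, so the species and the cell line behind these counts are in doubt, and the cells are named below only as labelled. The table has no row for LINC00115, so the knockdown could not be checked and each direction rests on the labels. No mouse gene models were used, so positions and gene lengths are not given, and a count is not a level that can be compared between genes. Among cell markers, Vim (3420 ± 49.8 normalized CPM in WT, SD, n = 3; CPM scales each count to the library's total) and Cd44 (911 ± 45.8) were high, as were Krt8 (472 ± 5.52) and Cd24a (279 ± 5.47), whereas Epcam, Krt19, Cdh2 and Prom1 had at most 14 counts summed over a group. In KD, Vim stood at 3740 ± 79.7, Cd44 at 879 ± 11, Krt8 at 752 ± 23.2 and Cd24a at 155 ± 0.294. Cdh1 had 6 counts summed over WT and 83 over KD. Of the receptors whose absence names triple-negative tumors, Pgr had 5 counts in WT and 0 in KD. Esr1 stood at 0.698 ± 0.0678 in WT and 2.56 ± 0.285 in KD, and Erbb2 at 17.0 ± 1.27 and 27.6 ± 0.534.

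Library totals lay between 36979221 and 38799331 counts, and 1 count was worth between 0.0259 and 0.0272 normalized CPM. The members fell into 5 well-counted genes, whose counts reached 500 or more throughout (Aldh2, Aldh18a1, Aldh3a2, Aldh3a1 and Aldh3b1), and 5 genes with under 100 counts in every library (Aldh1a1, Aldh1a2, Aldh1a3, Aldh1a7 and Aldh1b1). Of the 10 members, 6 passed the expression filter and were tested. They were the well-counted genes and Aldh1a1, which 2 WT libraries alone, with 12 and 17 counts, would not have carried past the filter of 3 libraries.

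Of the 6 members tested, 4 had higher levels after LINC00115 KD (Aldh1a1, Aldh3a1, Aldh3a2 and Aldh2) and 0 were lower at an adjusted p-value under 0.05 (edgeR's quasi-likelihood test, Benjamini-Hochberg adjustment over 13497 genes). Among all genes tested, 36.7% were higher and 36.7% were lower by this rule. With the fold change over 2 that the study also required, 1 member was called higher, Aldh1a1, and 0 were called lower, against 10.2% and 9.98% of all genes. Aldh1a1 passed the expression filter only with its KD libraries, where it is high, so its p-value and call, here and below, are descriptions. At an unadjusted p-value under 0.05, 4 members were higher and 0 lower, and DESeq2 gave 5 higher and 0 lower at an adjusted p-value under 0.05. DESeq2 was fitted to 22406 genes. Shares of all genes under these further rules are not given here, so their member counts are descriptions. The median log2 fold change of the 6 genes was 0.165, beside -0.0061 over all genes tested, and the median size of the change was 0.165 beside 0.453. Values of WT and KD libraries did not overlap for 4 of the 6 members (66.7%), compared with 75.6% of all genes tested. The changes of Aldh2, Aldh3a2, Aldh3b1 and Aldh18a1 were smaller than the median size over all genes.

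**Figure D1:**
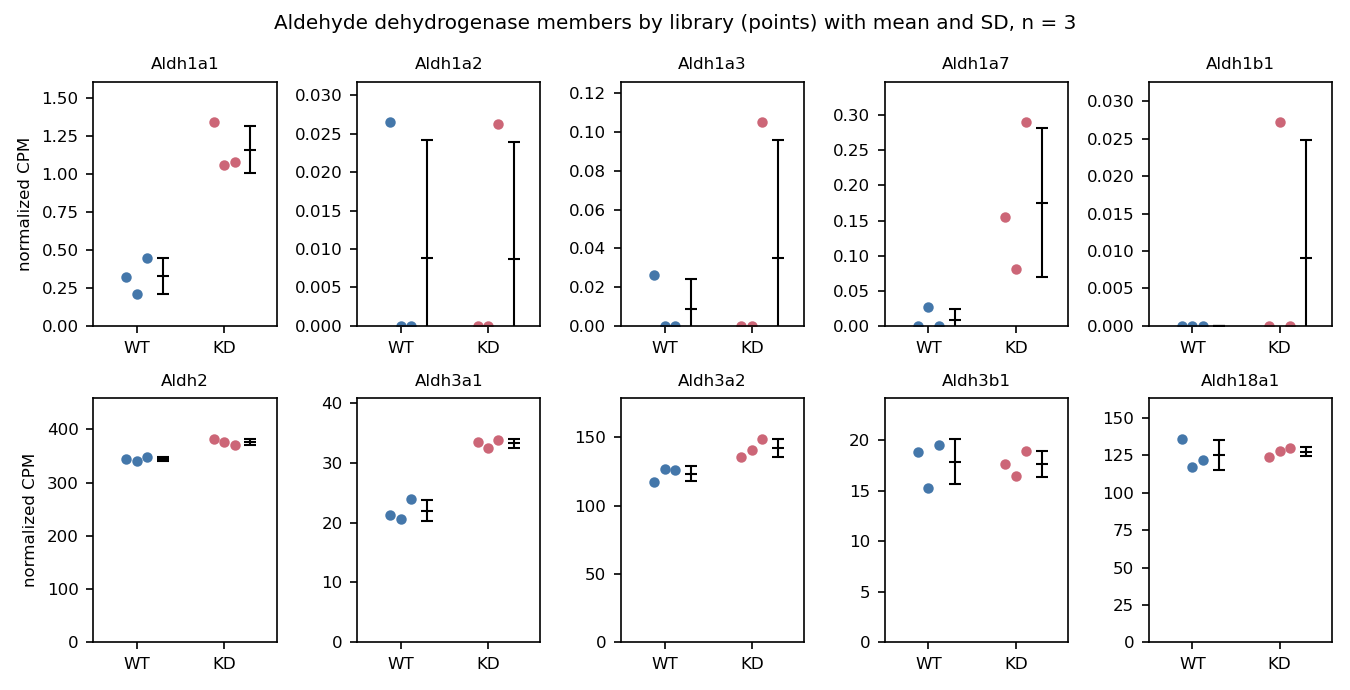
Normalized CPM (y axes, linear and starting at 0, each panel with its own range) of the 10 members in the 3 WT and 3 LINC00115 KD libraries; points are libraries in the order of their replicate numbers, and the black marks are the mean and SD, cut at 0 where the SD exceeds the mean. Aldh1a1, Aldh1a7, Aldh2, Aldh3a1 and Aldh3a2 have every KD library above every WT library, whereas Aldh1a2, Aldh1a3 and Aldh1b1 rest on 0 to 4 counts a library.

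Aldh1a1 encodes the cytosolic retinaldehyde dehydrogenase most often linked to stem-like cells. It had 12, 8 and 17 counts in the WT libraries and 52, 39 and 41 in the KD libraries. All KD libraries were above all WT libraries, on few counts in both. In normalized CPM it rose from 0.327 ± 0.119 to 1.16 ± 0.158 (SD, n = 3 each), and its log2 fold change was 1.82 (standard error 0.47, 95% interval 0.86 to 2.78, adjusted p = 0.000925, edgeR's quasi-likelihood test). The lower end of the interval is under a fold change of 2. The spread between WT libraries, 36.5% of the mean, was near the 28.5% that counting error alone gives, and in KD it was 13.6% beside 15.1%. The change lay above those of 95.1% of all genes tested. In bulk RNA, more cells of a type and more RNA per cell cannot be told apart, and this holds for each gene described here.

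Aldh1a7 had 0, 1 and 0 counts in the WT libraries and 6, 3 and 11 in the KD libraries. The groups did not overlap, although the lowest KD library had 3 counts. It did not pass the expression filter, and the ratio of its summed counts, 20 to 1, was 20.0 with an exact 95% counting interval from 3.19 to 828. That interval covers counting error only. Without the filter its adjusted p was 0.0298 in edgeR's quasi-likelihood test and with DESeq2 it was 0.0275. Reads of Aldh1a1 and Aldh1a7 can be divided between these similar genes in ways that the counting does not show, so both values are uncertain. With their counts summed to 1 gene, the log2 fold change was 1.98 (adjusted p = 0.000209, edgeR's quasi-likelihood test).

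The other retinaldehyde dehydrogenases were at the limit of detection. Aldh1a2, the main retinoic acid source of the early embryo, had 1 count in 1 WT library and 1 in 1 KD library. Aldh1a3, which is often the isozyme behind ALDEFLUOR staining in breast cancer lines, had 1 count in WT replicate 1, 4 in KD replicate 3 and 0 in the others. Its ratio of summed counts, 3.99, had an exact 95% counting interval from 0.395 to 197, so no difference was detectable at this depth. Aldh1b1, a mitochondrial enzyme that oxidizes acetaldehyde and retinaldehyde, had 0 counts in WT, which allows up to 3 counts in the 3 libraries or 0.0265 normalized CPM, and 1 count in KD. The 4 Aldh1a genes together held 0.0277% to 0.0509% of the counts of all Aldh genes in the WT libraries and 0.126% to 0.165% in the KD libraries. In both groups the ALDH1A genes thus gave a small part of the family's reads.

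Aldh2, the mitochondrial enzyme that removes acetaldehyde and lipid aldehydes, had the most reads of the family. Its counts were 12975, 12875 and 13184 in WT and 14783, 13858 and 14071 in KD. Every KD library was above every WT library, and the libraries of a group lay close together, with a spread of 1.15% of the mean in WT and 1.56% in KD. It rose from 345 ± 3.95 to 377 ± 5.89 normalized CPM, a gain of 9.26% and a log2 fold change of 0.13 (standard error 0.032, 95% interval 0.06 to 0.19, adjusted p = 0.000708, edgeR's quasi-likelihood test). The size of this change was larger than that of only 15.8% of genes tested. Upper quartile scaling gave 0.09 (adjusted p = 0.0172, edgeR's quasi-likelihood test).

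The ALDH3 enzymes act on medium- and long-chain aldehydes. Aldh3a1, a cytosolic enzyme abundant in cornea and stomach that clears products of lipid peroxidation, had 804, 779 and 907 counts in WT and 1295, 1188 and 1283 in KD. It rose from 22.0 ± 1.78 to 33.2 ± 0.748 normalized CPM, by 51.0%, with a log2 fold change of 0.59 (standard error 0.073, 95% interval 0.45 to 0.74, adjusted p = 6.78e-09, edgeR's quasi-likelihood test). This was the largest change among the well-counted members, and its interval stayed under a fold change of 2. A list of stratified and corneal epithelial genes (7 in the table, among them Krt4, Krt5 and Krt13) summed to 29.9 normalized CPM in WT replicate 3, to 3.85 and 4.64 in the other WT libraries and to between 4.06 and 4.94 in KD. Not all 7 genes stood out in WT replicate 3. Trp63 had 6, 15 and 11 counts in WT and 34, 36 and 39 in KD. Krt10 had 71, 90 and 95 counts in WT and 90, 47 and 59 in KD. Aldh3a1 was also highest in WT replicate 3, 24.0 beside 21.3 and 20.6 normalized CPM. Without that library its log2 fold change was 0.66. A link between this list and Aldh3a1 was not tested.

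Aldh3a2, the fatty aldehyde dehydrogenase of the endoplasmic reticulum, had 4413, 4795 and 4752 counts in WT and 5247, 5192 and 5641 in KD. It rose by 15.1%, from 123 ± 5.38 to 142 ± 6.45 normalized CPM, with a log2 fold change of 0.20 (standard error 0.043, 95% interval 0.12 to 0.29, adjusted p = 8.28e-05, edgeR's quasi-likelihood test). The groups did not overlap. Aldh3b1, a membrane-bound relative, had 710, 578 and 737 counts in WT and 681, 602 and 719 in KD. The KD libraries lay within the range of WT, at 17.9 ± 2.26 and 17.6 ± 1.27 normalized CPM, and the log2 fold change of -0.02 had a 95% interval from -0.21 to 0.17.

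Aldh18a1 differs from its relatives in function. It encodes delta-1-pyrroline-5-carboxylate synthase, which starts proline and ornithine synthesis from glutamate. Its counts were 5138, 4425 and 4596 in WT and 4778, 4683 and 4928 in KD. Again the KD values stayed inside the WT range, at a mean of 127 beside 125 normalized CPM and a spread of 2.49% beside 8.02% of the mean, with a log2 fold change of 0.02 and a 95% interval from -0.07 to 0.12. A change of the size seen for Aldh3a2 lies outside that interval.

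**Figure D2:**
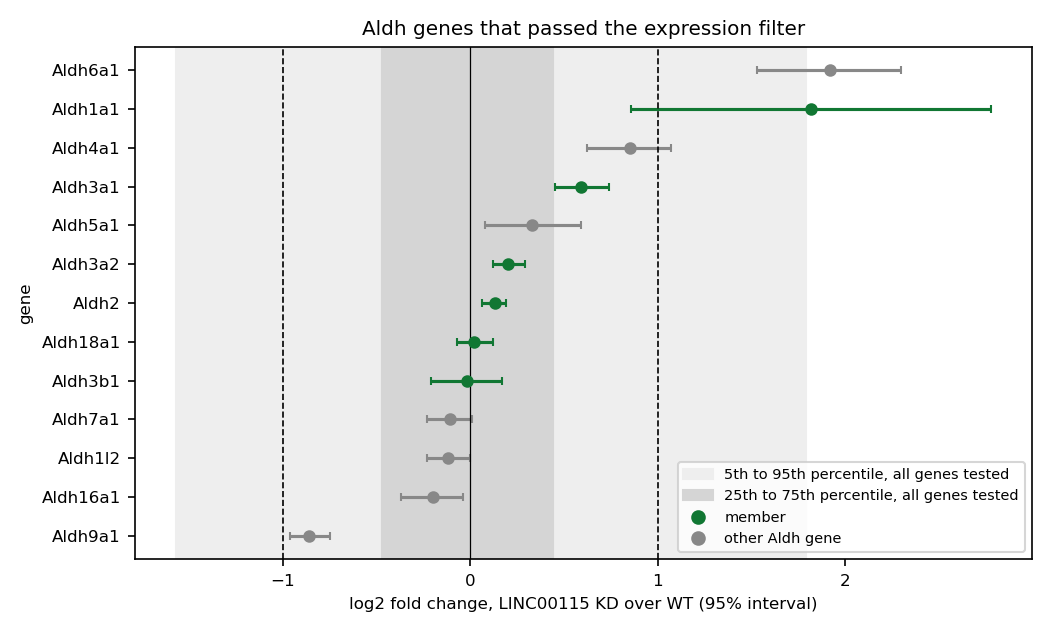
Log2 fold change of LINC00115 KD over WT with its 95% interval (x axis) for the 13 Aldh genes tested (y axis), members in green and other Aldh genes in gray; shaded bands hold the 25th to 75th and the 5th to 95th percentiles of all genes tested, and dashed lines mark a fold change of 2. Aldh1a1 (1.82) and Aldh6a1 (1.92) lie above the upper dashed line and Aldh9a1 (-0.86) is the lowest.

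Summed over the 10 members, the level was 633 ± 10.4 normalized CPM in WT and 698 ± 4.66 in KD, a ratio of 1.10, and without Aldh2 it was 289 ± 7.23 and 321 ± 10.5, a ratio of 1.11. The Aldh1a genes, whose own sum rose from 0.353 ± 0.107 to 1.38 ± 0.206, added little to it. Aldh2 took 39.1% ± 0.895 of the counts of all 21 Aldh genes in WT and 41.3% ± 0.856 in KD, Aldh18a1 14.1% ± 0.789 and 13.9% ± 0.299, Aldh3a2 14.0% ± 0.943 and 15.5% ± 0.634, and Aldh3a1 2.49% ± 0.197 and 3.64% ± 0.0669. These are shares of reads, which also depend on gene length.

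**Figure D3:**
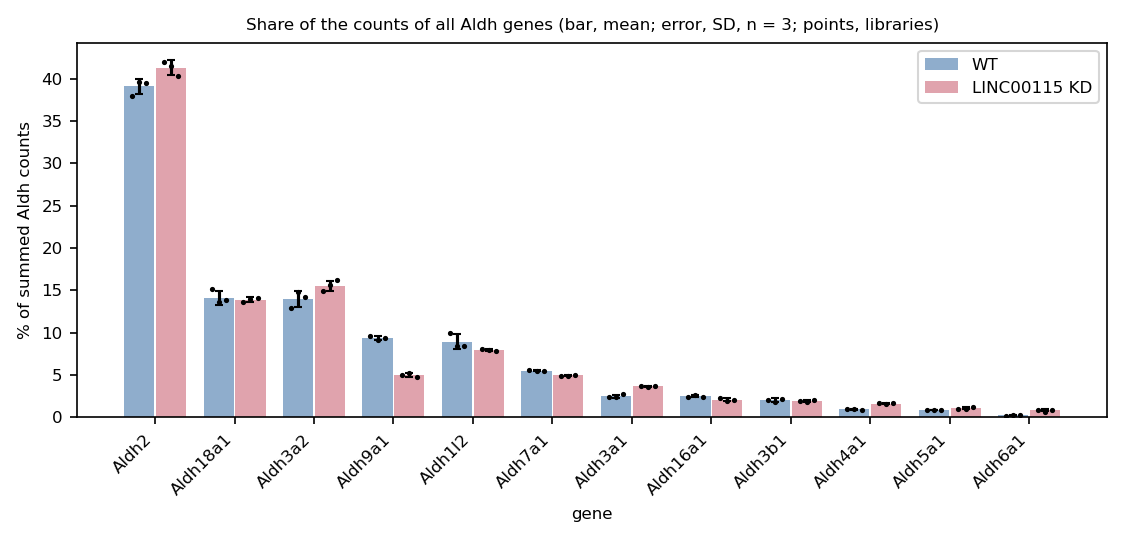
Share of the summed counts of all 21 Aldh genes (y axis, percent, starting at 0) for the 12 genes (x axis) with at least 0.5% in a group; bars are means of 3 libraries, error bars are SD and points are libraries. Aldh2 holds 39.1% in WT and 41.3% in KD, and Aldh3a1 2.49% and 3.64%.

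Of the 11 Aldh genes that are not members, 7 were tested. By the adjusted p-value alone 3 rose and 2 fell, and 1 was called higher, Aldh6a1, counts near the 36.7%, 36.7% and 10.2% of all genes. Aldh9a1, which oxidizes an aldehyde of carnitine synthesis, fell in every KD library, from 9350 summed counts in WT to 5169, and from 82.6 ± 3.85 to 45.6 ± 1.87 normalized CPM (log2 fold change -0.86, standard error 0.053; edgeR's quasi-likelihood test gave an adjusted p of 2.06e-16). The 11 genes summed to 250 ± 15.3 normalized CPM in WT and 215 ± 2.25 in KD, and the sum over all Aldh genes was 883 ± 22.8 in WT and 913 ± 5.33 in KD. Aldh6a1, of valine breakdown, had 64, 80 and 75 counts in WT and 314, 223 and 295 in KD (log2 fold change 1.92, standard error 0.19; edgeR's quasi-likelihood test gave an adjusted p of 4.43e-11). Aldh4a1, which degrades the product that Aldh18a1 makes, rose from 8.18 ± 0.704 to 14.7 ± 0.786 normalized CPM (log2 fold change 0.85, adjusted p = 1.67e-08, edgeR's quasi-likelihood test). Aldh5a1, of GABA breakdown, rose by 26.0% (adjusted p = 0.0168, edgeR's quasi-likelihood test), but without KD replicate 3 its log2 fold change of 0.23 did not pass the threshold. Aldh16a1 fell by 13.2%, and this did not pass the threshold without WT replicate 2, KD replicate 2 or KD replicate 3 (log2 fold changes -0.19, -0.15 and -0.18) or with DESeq2. Aldh1l2 and Aldh7a1 had log2 fold changes of -0.12 (95% interval -0.23 to 0.00) and -0.11 (-0.23 to 0.01), and did not pass the threshold.

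A pair of rarely counted relatives resembled Aldh1a7. Aldh1l1, the cytosolic 10-formyltetrahydrofolate dehydrogenase, had 0 counts in each WT library and 3, 17 and 12 in KD. This is at least 10.7-fold higher when the WT group is set at its floor of 3 counts, and the exact 95% lower limit of the ratio, which also covers counting error in KD, was 8.17. Aldh8a1, of the kynurenine pathway, had 1, 0 and 0 counts in WT and 6, 16 and 5 in KD, a ratio of 27.0 with an exact 95% counting interval from 4.44 to 1100. Their highest KD library was replicate 2, whereas Aldh1a7 was lowest there. Aldh3b2 had 0 counts in all libraries and Aldh3b3 1 count in a WT library.

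Markers of other cell types moved with these low-count genes. For 12 of 12 lung genes the lowest KD library lay above the highest WT library, and their sum lay between 0.823 and 1.11 normalized CPM in WT and between 72.1 and 83.6 in KD. The club cell gene Scgb1a1 and the alveolar gene Sftpc had 0 counts in WT and 43.6 ± 4.68 and 14.7 ± 1.13 normalized CPM in KD, and 7 of the 12 genes were at 0 in WT. Of 10 kidney genes, 7 were higher without overlap and 1 was lower, with sums of 15.7 to 18.4 in WT and 42.7 to 46.0 in KD, and 6 were at 0 in WT, Kap among them. Over all genes tested, 75.6% did not overlap between the groups, counting both directions. Genes at 0 in WT could differ in 1 direction only, so these counts are a description. Of 5 red cell genes, 4 were higher without overlap, with sums of at most 0.0794 in WT and of 1.63 to 2.33 in KD, where Hbb-bs stood at 0.859 ± 0.333. Liver genes summed to at most 0.371 in WT and to 0.872 to 1.42 in KD, of which Cyp2e1 made up 1.03 ± 0.295, and Alb had 2 counts in WT and 1 in KD. Lung and kidney both express Aldh1a1, and their part in the values of Aldh1a1, Aldh1a7, Aldh1l1, Aldh8a1 and Aldh6a1 was not tested.

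**Figure D4:**
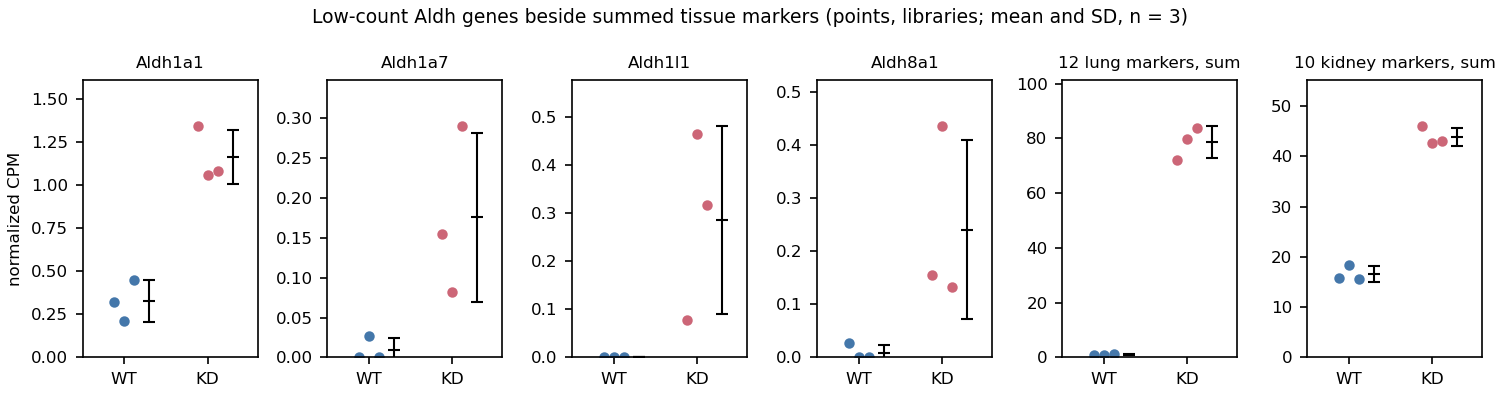
Normalized CPM (y axes, linear and starting at 0, each panel with its own range) of Aldh1a1, Aldh1a7, Aldh1l1 and Aldh8a1 and the summed normalized CPM of 12 lung and 10 kidney marker genes in the 3 WT and 3 LINC00115 KD libraries; points are libraries, and black marks are the mean and SD. In every panel all KD points lie above all WT points, with lung sums of 72.1 to 83.6 in KD and at most 1.11 in WT.

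Of the remaining marker lists, endothelial genes summed to 0.715 to 1.19 in WT and 57.3 to 59.7 in KD, of which Cdh5 alone made up 57.8 ± 1.45 while Pecam1 stood at 0.324 ± 0.153. Leukocyte genes summed to 34.9 to 35.7 in WT and 99.7 to 111 in KD, mostly S100a8. Higher without overlap as well were the myeloid genes Lyz2 (33, 52 and 5 counts in WT, 249, 250 and 247 in KD) and S100a9 (2 counts over WT, 166 over KD) and the antigen presentation gene Cd74 (105 and 372). Ptprc, the marker of all leukocytes, stood at 0.194 ± 0.107 normalized CPM in WT and 0.255 ± 0.0704 in KD. Fibroblast genes summed to 175 to 193 in WT and 76.4 to 78.4 in KD, mostly Pdgfra, with Col1a1 at 0.389 ± 0.0408 and 0.292 ± 0.225. For the well-counted members these shifts stand beside changes of at most 51.0%, and their part in them was not tested.

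The genes around the ALDH1A step supply retinaldehyde and use or break down retinoic acid. From a list of 36 retinoid uptake, synthesis, breakdown and receptor genes, 33 were in the table and 22 were tested. By the adjusted p-value 9 of them rose and 8 fell, and their median log2 fold change was 0.055. Of all genes tested 36.7% rose and 36.7% fell, so these counts by the adjusted p-value are near the background. The same shares stand beside the counts of the lists that follow. With the fold change over 2 as well, 5 of the 22 were called higher and 4 lower, beside 10.2% and 9.98% of all genes. Rdh5, a retinol dehydrogenase, fell from 19.7 ± 1.10 to 2.56 ± 0.386 normalized CPM (log2 fold change -2.94). The retinoic acid receptor Rara fell from 131 ± 3.41 to 48.8 ± 1.87 (-1.42). Dhrs9, another short-chain retinol dehydrogenase, rose from 49.0 ± 4.41 to 109 ± 2.17 (1.15). Each of these changes exceeded the spread between libraries, with adjusted p-values from 3.64e-24 to 6.18e-20 in edgeR's quasi-likelihood test.

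Of 12 genes known to respond to retinoic acid that were tested, 3 were higher and 5 lower, also near the background, with a median of -0.087. Without genes shared with other lists, 7 were left and their median was -0.28. Tgm2, a transglutaminase, rose from 142 ± 2.60 to 351 ± 4.28 normalized CPM (log2 fold change 1.31). Cyp26a1, which degrades retinoic acid, had 0, 5 and 26 counts in WT and 59, 38 and 50 in KD, so that WT replicate 3 stood apart here as well. Its log2 fold change was 2.23 (adjusted p = 0.00127, edgeR's quasi-likelihood test). Cyp26a1 passed the expression filter only through its KD libraries, where it is high, so this p-value is a description.

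Among 19 alcohol dehydrogenases, aldo-keto and carbonyl reductases and aldehyde-using oxidases tested, 5 were higher and 11 lower, with a median log2 fold change of -0.25, opposite in sign to that of the members. Xdh, xanthine dehydrogenase, rose from 189 ± 7.66 to 422 ± 4.13 normalized CPM (1.16). The proline and ornithine list, in which Aldh18a1 does its work, had 10 of 12 genes higher and 1 lower, with a median of 0.44. Prodh, the first enzyme of proline breakdown, rose from 6.41 ± 0.658 to 16.6 ± 1.06 (1.37), and Pycr1, which acts on the product of Aldh18a1 in proline synthesis, rose (0.51), beside the change of 0.02 in Aldh18a1 itself. Aldh4a1 is counted in this list as well, and without it the median was 0.37. These lists were set up with results of these data known, so their counts are descriptions.

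In the folate list, which holds Aldh1l1 and Aldh1l2, 13 of 23 genes tested were higher and 8 lower, with a median of 0.33. The folate carriers Slc19a1 and Slc25a32 rose (1.54 and 1.02) and Amt, of the glycine cleavage system, fell (-1.68). Of 26 NRF2 target genes tested, 17 were higher and 4 lower, with a median of 0.55, and 7 were called higher, beside 10.2% of all genes. Slc7a11, the cystine importer, rose from 128 ± 9.78 to 625 ± 9.33 normalized CPM (2.29), followed by Osgin1 (2.07), Gclm (1.52) and Srxn1 (1.52), while Nqo1 had a log2 fold change of -0.03. The 4 lower genes were G6pdx (-0.83), Gstm2 (-0.64), Me1 (-0.56) and Cbr1 (-0.53). Aldh3a1 and Aldh3a2 share the direction of the list's median, with smaller changes than Slc7a11, Osgin1, Gclm and Srxn1. A link between these members and NRF2 was not tested.

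**Figure D5:**
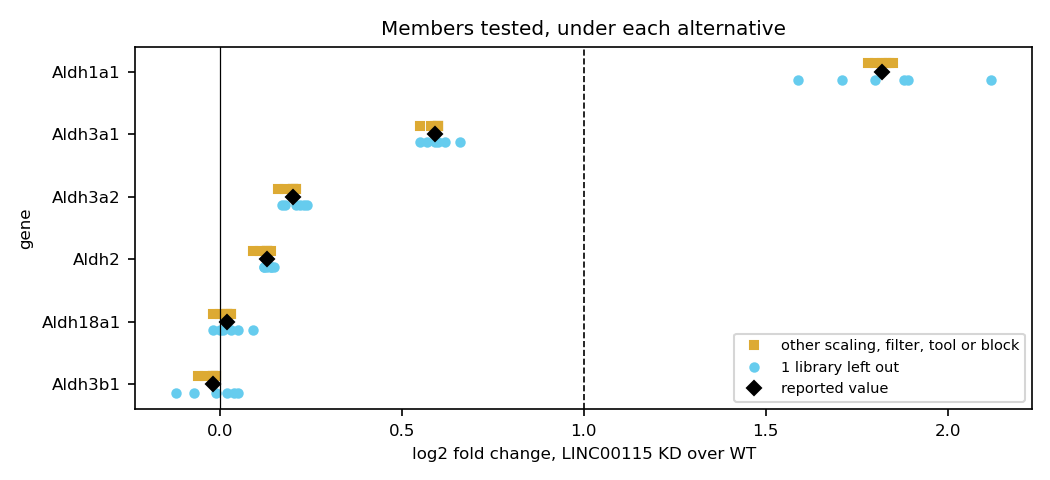
Log2 fold change of LINC00115 KD over WT (x axis) for the 6 members tested (y axis) as reported (black diamonds), with another scaling, filter, tool or a replicate block (yellow squares) and with 1 library left out (blue circles); the dashed line marks a fold change of 2. Aldh1a1 stays between 1.59 and 2.12 and Aldh3a1 between 0.55 and 0.66, whereas Aldh18a1 and Aldh3b1 fall on both sides of 0.

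Aldh1a1 stayed above a fold change of 2 in each of the 12 alternative fits that tested it, with log2 fold changes between 1.59, without WT replicate 2, and 2.12, without WT replicate 3, and adjusted p-values up to 0.00925 (edgeR's quasi-likelihood test and DESeq2). It could not be tested where at least 10 counts were required in every library, because WT replicate 2 had 8. The fits of Aldh1a1 reuse the same few counts, so they describe how its value moves with the processing and are no further test of it. Aldh2, Aldh3a1 and Aldh3a2 kept their direction and stayed past the threshold in 13 of 13 alternative fits each, with log2 fold changes of 0.09 to 0.15, 0.55 to 0.66 and 0.16 to 0.24.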

How the data were processed

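Per the labels and the paper's methods, the authors trimmed adapters, mapped reads with HISAT2 and deposited raw counts per gene for 6 libraries, in a single table without normalization. The methods name hg19 as the genome and the processing notes hg38, with featureCounts and DESeq2. The annotation and use of strand are not given in the sources used here. Columns were matched to samples by the descriptions in the labels, and 0 columns were left unused. Library totals were 36979221 to 38799331 counts.

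The test was edgeR 4.0.16 under R 4.3.3 (filterByExpr, minimum count 10 and minimum total 15; TMM; quasi-likelihood test with the group only; Benjamini-Hochberg adjustment over 13497 genes). Calls needed a fold change over 2 together with an adjusted p-value under 0.05, the study's thresholds. The standard error is the absolute log2 fold change over the root of the F statistic. Ratios of summed counts carry exact binomial intervals. A fold against a group at 0 uses 3 counts over that group. The pipeline was tested on simulated data.

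Members and lists were chosen with earlier results of these data known. The genes named are all Aldh genes, the defining markers of each cell type and, from each list, the 4 or fewer called genes of largest change whose higher group had 100 or more counts per library. Named outside this rule, after their values were seen, are the markers of the breast line and the receptors, Cyp26a1, Pycr1, Nqo1 and Cyp2e1. So are Cdh5, S100a8, S100a9, Lyz2, Cd74, Pdgfra, Krt4, Krt10, Krt13 and Trp63, and the NRF2 targets G6pdx, Gstm2, Me1 and Cbr1. Alternatives were scaling by library size, by upper quartile or by the size factors of DESeq2, other filters, DESeq2 1.42.0, a fold change over 1.5, a replicate block, and each library left out. Median fold changes of lists without shared genes were added after the data were seen. Some genes of the lists are not reported here.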

Additional observations from a re-analysis of the deposited data

How the results depend on the processing

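The direction of Aldh1a1, Aldh2, Aldh3a1 and Aldh3a2 and their side of the threshold held under each alternative that tested them. For Aldh1a1, which passed the reported filter only with its KD libraries, this is a description. The count of members called higher, 1 as reported, was 2 without a low-count filter and 2 with DESeq2, both times with Aldh1a7 added, 2 at a fold change over 1.5, with Aldh3a1 added, and 0 with at least 10 counts in every library, where Aldh1a1 is no longer tested. No member was called lower under any alternative. Aldh18a1 turned to -0.02 with upper quartile scaling and ranged from -0.02 to 0.09 with a library left out, and Aldh3b1 ranged from -0.12 to 0.05, both without passing the threshold. Over all genes, 1347 were called lower and 1381 higher; a fold change over 1.5 gave 2456 and 2463, and at least 10 counts in every library gave 903 higher genes, because genes with few counts in a group are then not tested. The replicate numbers are shared between the groups, but deviations of same-numbered libraries correlated by 0.0135, -0.0194 and -0.0202. Libraries with different numbers correlated by -0.0182 to 0.0379. No sign of pairing was seen, though 3 libraries per group cannot exclude it. With the replicate block, 1316 genes were called lower and 1360 higher, with 1 member called higher and 4 past the adjusted threshold, and Aldh1l2 passed the threshold (-0.11, adjusted p = 0.0478, edgeR's quasi-likelihood test). Aldh1l2 did so under 6 of 13 alternatives, with adjusted p-values from 0.0114 to 0.851 over all 13, and was -0.01 without WT replicate 1. Aldh7a1 passed under 2 of 13, upper quartile and library-size scaling, with adjusted p-values from 0.0178 to 0.241 over all 13. At this depth, 3 counts over a group correspond to 0.0265 normalized CPM, and nothing can be said of changes in Aldh1a2, Aldh1a3 and Aldh1b1.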
